A study of Homo sapiens with 14 samples.

Results

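The last step of retinoic acid (RA) treatment of NT2 cells, between day 10 and day 21, was described by setting the 2 RA day 21 libraries against the 2 RA day 10 libraries. These are 4 of the 14 RNA sequencing libraries of the series, grouped by treatment and day, and 19142 genes were tested. The comparison was chosen with earlier results of these data known. NT2 is a human embryonal carcinoma line, a tumour-derived cell that resembles pluripotent cells and can be driven toward several fates. The series concerns nucleotide excision repair, the pathway that removes bulky DNA lesions, while these cells differentiate. RA day 21, RA day 10 and RA day 5 cells received all-trans RA from a stock in DMSO, at a final 10 µM, in serum-containing medium renewed at intervals of 2 days. The day 0 cells are labelled as without treatment, and bone morphogenetic protein 2 (BMP2) was given to a separate set of cultures for the same days. The labels name DMSO at 0.1% as the vehicle control, and DMSO cultures of day 10 or day 21 were not analysed here, so time in culture and time in RA cannot be told apart. All libraries come from 1 line, and the labels do not say that the 2 libraries of a group came from separate cultures. The p-values below therefore measure the spread between these libraries, which may be technical. The sample descriptions number the RA day 21 libraries 3 and 4 and those of every other group 1 and 2. The labels do not say whether the RA day 21 libraries were made in another batch, and such a batch and the day cannot be told apart.

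RA enters the nucleus and binds receptors of the RAR and RXR families, which sit on DNA and switch on targets that include the HOX genes at the starts of their clusters. NT2 cells in RA are known to leave the pluripotent state, to divide less and to give rise to neurons beside flat, matrix-producing cells. The labels describe RA as the treatment that induces neurons.

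Total counts were 61590693 and 69531635 in the RA day 21 libraries, against 45773278 and 60913075 in the RA day 10 libraries. Levels are given as CPM, counts scaled to library size and TMM factor, and compare a gene between libraries but not genes with each other. The RA day 21 libraries resembled each other more closely than the RA day 10 libraries did. Only 3 of the 19142 genes lay at least 4-fold apart between the RA day 21 libraries, against 247 between the RA day 10 libraries, 196 of these higher in replicate 1. Genes of myeloid blood cells stood out among them. Over a list of 22 myeloid genes, chosen after these values were seen, the summed level of the 21 in the table was 4.8 and 4.7 CPM at RA day 21, against 284.1 and 11.6 CPM at RA day 10. It was 9.4 and 19.7 CPM at day 0 and 8.5 and 12.4 CPM at RA day 5, so RA day 10 replicate 1 stands alone. In that library none of the 21 was at 0, and the receptor gene CSF1R, the transcription factor gene SPI1 and the leukocyte gene PTPRC had 37.5, 11.4 and 8.26 CPM. In RA day 10 replicate 2 the same genes had 0.283, 0 and 0 CPM. RA day 10 replicate 2 was the higher library for some neural genes, such as STMN2, ELAVL4, RFX4 and OLIG3, and the lower one for others, such as DCX, NEFM and CHRNA3. The summed level of the neuronal cytoskeleton list was 4080.8 and 4283.2 CPM in the RA day 10 libraries. The part of these library differences in the results below was not tested.

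**Figure D1:**
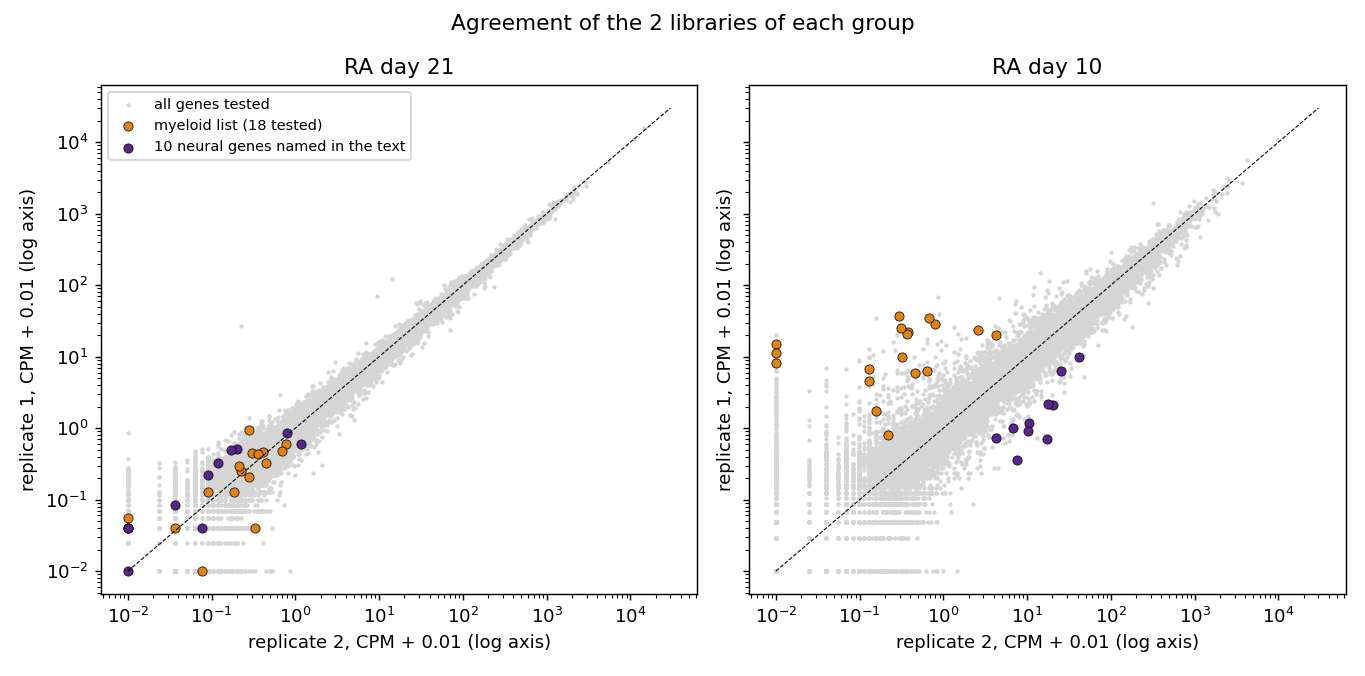
Replicate 1 against replicate 2 for RA day 21 (left) and RA day 10 (right), in CPM + 0.01 on log axes, 1 grey point per gene tested, with the line of equality. The 18 myeloid genes tested (orange) lie far above the line at RA day 10, the 10 neural genes (purple) below it, and both sets are low in the RA day 21 libraries. The purple genes are a chosen set: OLIG3, RFX4, ELAVL3, ELAVL4, STMN2, STMN4, ST18, INSM1, CNTN2 and L1CAM. Neural genes that were higher in RA day 10 replicate 1, such as DCX, NEFM and CHRNA3, are not marked.

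Of the 19142 genes, 1883 passed edgeR's quasi-likelihood test at a Benjamini-Hochberg adjusted p under 0.05, which is 9.84%. They are called higher or lower here. At RA day 21, 856 were higher (4.47% of those tested) and 1027 lower (5.37%), and 247 of the higher and 328 of the lower ones differed by at least 4-fold. The median log2 fold change of all genes was 0.01. In all 1883 the libraries of the groups did not overlap, which on its own is common here: 36.9% of all genes tested had both RA day 21 libraries above both RA day 10 libraries and 33.1% had them below. An exact permutation of 2 libraries against 2 cannot give a p below 0.333, so the calls rest on the spread that the fit shares across genes and groups. All 1883 kept their direction when any of the 4 libraries was left out, but most lost the call. Without RA day 21 replicate 1 or 2, 24 and 19 of the 1883 stayed called, and without RA day 10 replicate 1 or 2, 521 and 87. Of 881 genes in the 34 lists described below, 164 in 32 lists were called. The count was 53 in 18 lists without RA day 10 replicate 1 and 13 in 8 lists without RA day 10 replicate 2. Without either RA day 21 library 1 was called, RARRES1, so the list counts below, apart from that gene, rest on both of them.

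**Figure D2:**
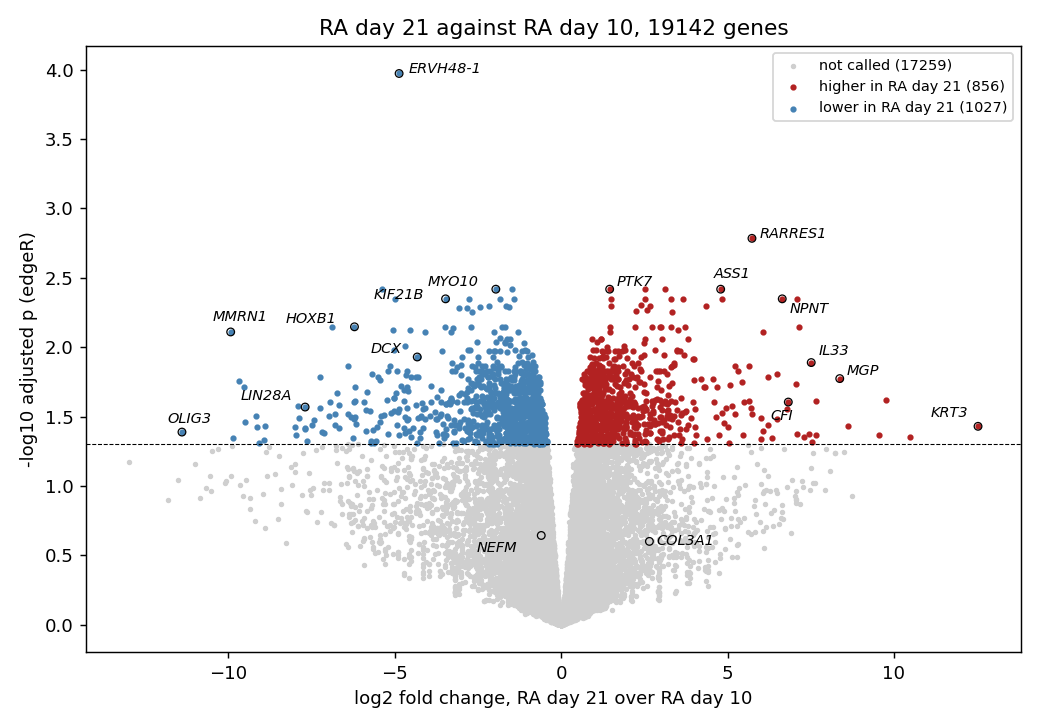
Log2 fold change of RA day 21 over RA day 10 against the -log10 adjusted p from edgeR for 19142 genes, with the genes called higher in red, lower in blue and the threshold dashed. ERVH48-1 and RARRES1 have the smallest adjusted p on their sides, and NEFM and COL3A1 lie below the threshold.

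The fold changes of called genes vary widely, from 0.43 upward on the log2 scale without sign, and 15 genes stayed called whichever of the 4 libraries was left out. These were picked out after their values were seen. Among them RARRES1, named for its response to retinoids, had 81.5 and 64.8 CPM in the RA day 21 libraries, against 1.39 and 1.36 CPM in the RA day 10 libraries. NPNT, which encodes the matrix protein nephronectin, had 99.5 and 144 CPM in the RA day 21 libraries, against 1.16 and 1.27 CPM in the RA day 10 libraries. ASS1, an enzyme of arginine synthesis, had 290.4 and 296 CPM in the RA day 21 libraries, against 15.4 and 5.83 CPM in the RA day 10 libraries. In each case both late libraries lay at least an order of magnitude above both earlier ones. The log2 fold changes were 5.73 ± 0.46, 6.64 ± 0.73 and 4.79 ± 0.48 (SE, 2 libraries per group), with edgeR adjusted p of 0.00165, 0.00449 and 0.00382. PTK7, a membrane protein of planar cell polarity, moved less but with little spread, at 392 and 368 CPM in the RA day 21 libraries, against 141 and 136 CPM in the RA day 10 libraries. The other higher genes of this kind are TSPAN7, LXN, GCNT1, DPP10, LURAP1L, ATP5ME and ODAM, of which LXN lies wholly within another annotated gene, so reads of the pair cannot be told apart without strand. The lower ones are ERVH48-1, MYO10, EPB41L1 and TRIML2. MYO10, the motor of filopodia, had 45.3 and 49.6 CPM in the RA day 21 libraries, against 190.4 and 179.7 CPM in the RA day 10 libraries. TRIML2 was lower at each later time, with 67.8 and 83.8 CPM at day 0, 12.4 and 8.69 at RA day 5, 2.46 and 4.35 at RA day 10 and 0.134 and 0.0269 at RA day 21.

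The largest gains were in genes close to silence until day 10. IL33, a nuclear cytokine, had 0.0406 and 0 CPM at day 0, 0.0814 and 0.219 at RA day 5, 0.305 and 0.119 at RA day 10 and 32.7 and 44.2 at RA day 21. HOPX, a small homeodomain protein that does not bind DNA, had 13.5 and 32.9 CPM in the RA day 21 libraries, against 0.0761 and 0.238 CPM in the RA day 10 libraries. KRT3, a keratin of the cornea, had 0 counts in all libraries of day 0, RA day 5 and RA day 10 and 15 and 10.4 CPM at RA day 21, at least 507.1-fold higher than 3 counts over the RA day 10 libraries. These 3 genes share a flat early course and a single late rise. Without an RA day 21 library (replicate 1 or 2) IL33 had an edgeR adjusted p of 0.0838 and 0.102 and HOPX of 0.0436 and 0.0767. The same p without RA day 10 replicate 1 or 2 was 0.0438 and 0.0926 for IL33 and 0.0329 and 0.0448 for HOPX, and KRT3 was called in none of these fits. The sulfotransferase gene SULT1E1 (7.67 on the log2 scale), the nuclear factor gene NFIX (6.79), the ubiquitin ligase gene RNF128 (6.48), the collagen gene COL6A6 (6.23) and the carboxypeptidase-like gene CPXM2 (6.22) were higher as well. MGP, the matrix Gla protein that restrains calcification, had 95.3 and 235 CPM in the RA day 21 libraries, against 0.876 and 0.149 CPM in the RA day 10 libraries, but its span lies wholly within another annotated gene. A fixed criterion took genes under 1 CPM in all 6 libraries of day 0, RA day 5 and RA day 10. They also had at least 5 CPM in both RA day 21 libraries. There were 26 such late genes, 20 of them called higher (4.47% of all genes were). The criterion and the test use the same values, so a high share called follows from the choice and is no evidence. Among the 20 are also AQP4, BCHE, C7, CILP, GJB2, LURAP1L, NUPR1 and SYNC. Of the 856 higher genes, 570 were not called at RA day 10 against day 0, 199 were already called higher there (12.9% of all genes were) and 87 were called lower there (11.1% of all genes were). That comparison shares the RA day 10 libraries with this one, so the counts describe courses and are no independent evidence.

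**Figure D3:**
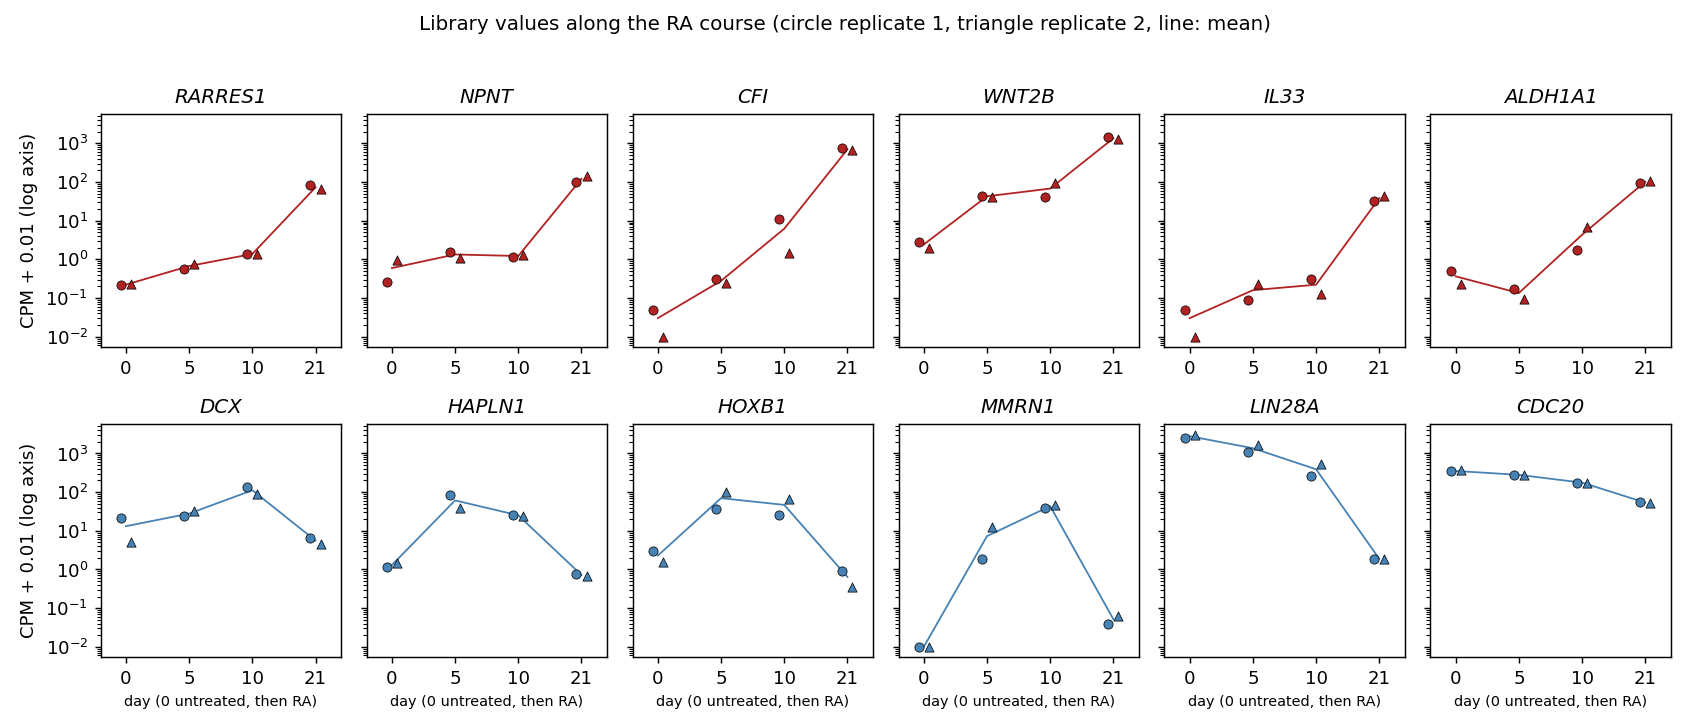
CPM + 0.01 on a log axis for 12 genes in every library at days 0, 5, 10 and 21, with circles for replicate 1, triangles for replicate 2 and lines through the means, red for genes higher at RA day 21 than at RA day 10 and blue for lower ones. RARRES1, NPNT, CFI, WNT2B, IL33 and ALDH1A1 rise in the last step, DCX, HAPLN1, HOXB1 and MMRN1 are lower again at day 21, and LIN28A and CDC20 decline along the whole course.

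A gene up at day 10 that fell again by day 21 was taken as one called higher at RA day 10 against day 0 and lower at RA day 21 against RA day 10. There were 120, out of 2476 called higher at day 10, and they share the RA day 10 libraries in both steps. That is 4.85% of the genes up at day 10, near the 5.37% of all genes called lower, so being up at day 10 did not go with a higher share. Among those with a mean of at least 5 CPM at RA day 10 the list was led by MMRN1, which encodes a protein of platelets and endothelial cells and had 0 and 0 CPM at day 0, 1.91 and 12.6 at RA day 5, 39.8 and 47.2 at RA day 10 and 0.0299 and 0.0539 at RA day 21. HOXB1, an early RA target of the hindbrain, had 3 and 1.56 CPM at day 0, 37.3 and 103 at RA day 5, 25.7 and 67.8 at RA day 10 and 0.926 and 0.337 at RA day 21. Both peaked at RA day 5 or day 10 and were near or below their day 0 level at day 21. Their log2 fold changes in the last step were -9.93 ± 1.26 and -6.21 ± 0.81. Both kept the call without either RA day 10 library and lost it without RA day 21 replicate 1 or 2, with edgeR adjusted p of 0.0933 and 0.107 for MMRN1 and 0.0623 and 0.0921 for HOXB1. HAPLN1, which links hyaluronan to proteoglycans, had 0.747 and 0.674 CPM in the RA day 21 libraries, against 26 and 24.2 CPM in the RA day 10 libraries. ZBTB16, a zinc finger repressor, had 1.52 and 1.06 CPM in the RA day 21 libraries, against 22.8 and 36.6 CPM in the RA day 10 libraries. The endothelin receptor gene EDNRB (-4.54), the repressor gene PRDM1 (-6.41), the cilium regulator gene FOXJ1 (-4.31) and the retroviral gene ERVH48-1 (-4.87) are also among the 10 largest losses at that level, as is DCX, described below. Most of the EDNRB span and all of the PRDM1 span overlap other annotated genes. Beyond these 120, of the 1027 lower genes 294 were already called lower at RA day 10 against day 0 (11.1% of all genes were), and 613 were not called there. Here too the RA day 10 libraries enter both comparisons, so the counts only describe courses. At least 5 CPM in both RA day 10 libraries and under 1 CPM in both RA day 21 libraries was seen in 38 genes. Of these 35 were called lower (5.37% of all genes were), a share that follows from choosing them by the values tested.

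The neuronal genes of this paragraph all had lower mean levels at RA day 21, but DCX alone was called. SYT1 and SNAP25, given below, had positive values and were not called. DCX, a microtubule protein of migrating young neurons, had 21.1 and 5.26 CPM at day 0, 23.7 and 32.1 at RA day 5, 135 and 88.9 at RA day 10 and 6.54 and 4.61 at RA day 21. Both RA day 21 libraries were far below both RA day 10 libraries, with a log2 fold change of -4.33 ± 0.67 and an edgeR adjusted p of 0.0118. The call held without either RA day 10 library and not without RA day 21 replicate 1 or 2 (edgeR adjusted p of 0.0988 and 0.135). NEFM, a neurofilament of axons, had 358 and 359 CPM in the RA day 21 libraries, against 718 and 369 CPM in the RA day 10 libraries and was not called (-0.60 ± 0.31, edgeR adjusted p of 0.228). The second RA day 10 library was close to both RA day 21 libraries. MAP2, a dendritic microtubule protein, had 133 and 171 CPM in the RA day 21 libraries, against 174 and 192 CPM in the RA day 10 libraries and was not called either. STMN2 had 0.478 and 0.162 CPM in the RA day 21 libraries, against 2.13 and 17.6 CPM in the RA day 10 libraries, and ELAVL4 0.508 and 0.189 CPM in the RA day 21 libraries, against 2.11 and 20.4 CPM in the RA day 10 libraries. Both are typical of postmitotic neurons, were under 1 CPM in both RA day 21 libraries and were not called. Their RA day 10 libraries lay far apart. In bulk RNA, fewer cells of a type and less RNA per cell cannot be told apart.

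Among 23 tested genes of the neuronal cytoskeleton, 19 had negative and 4 positive values, with a median log2 fold change of -1.07. Of the 23, 0 were called higher and 4 lower (17.4% against 5.37% of all genes). Besides DCX these were the kinesin gene KIF21B (-3.48), DPYSL2 of axon growth (-1.62) and the tubulin gene TUBB2A (-1.49). Of 31 proneural and neuronal transcription factors 5 were lower (16.1%) and 1 higher (3.23% against 4.47% of all genes), with a median of -2.21. Negative values were seen in 26 of the 31 and positive ones in 5. POU3F2, a factor of neural progenitors and young neurons, had 2.94 and 1.89 CPM in the RA day 21 libraries, against 20.1 and 39.5 CPM in the RA day 10 libraries. ST18 had 0.0747 and 0.0269 CPM in the RA day 21 libraries, against 1.01 and 6.83 CPM in the RA day 10 libraries, and INSM1 0.0299 and 0 CPM against 0.723 and 4.23 CPM, so for both the second RA day 10 library was the high one. ISL1 was lower as well (-3.54), and EBF1 was the higher one (1.60). Without RA day 10 replicate 2 the median of this list was -0.97 and 0 members were called. Without RA day 10 replicate 1 it was -2.72, with 4 called lower. In the cytoskeleton list 5 members were lower without RA day 10 replicate 1, 2 without RA day 10 replicate 2 and 0 without either RA day 21 library.

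Several genes of neural patterning and adhesion that lead the losses show the same spread. OLIG3, of the dorsal neural tube, had no count at RA day 21 and 1.18 and 10.4 CPM at RA day 10, at least 272.9-fold lower than there, with 3 counts over the RA day 21 libraries as the floor. RFX4, of neural tube and glia, had 0.0299 and 0.0674 CPM in the RA day 21 libraries, against 0.685 and 17 CPM in the RA day 10 libraries. CNTN2, an axonal adhesion protein, had 0.314 and 0.108 CPM in the RA day 21 libraries, against 9.77 and 42.1 CPM in the RA day 10 libraries. In all 3 the second RA day 10 library was several times the first, and both were above RA day 21. NGFR, the low-affinity neurotrophin receptor of neural crest, had 0.12 and 0.108 CPM in the RA day 21 libraries, against 7.33 and 12.3 CPM in the RA day 10 libraries, and the calcium-binding protein gene CALB2 0.0598 and 0.0539 CPM in the RA day 21 libraries, against 2.25 and 10.8 CPM in the RA day 10 libraries. Among 41 axon guidance and adhesion genes 6 were lower and 2 higher (14.6% and 4.88%, against 5.37% and 4.47% of all genes). L1CAM, which bundles axons, had 0.598 and 1.15 CPM in the RA day 21 libraries, against 6.38 and 25.3 CPM in the RA day 10 libraries, while the secreted guidance gene SLIT3 had 76.6 and 82.9 CPM in the RA day 21 libraries, against 12.7 and 7.32 CPM in the RA day 10 libraries, and SEMA3F rose as well (2.21). SLIT1 was among the lower ones with 0 and 0.0269 CPM at RA day 21, against 0.609 and 0.909 CPM at RA day 10. Synaptic vesicle and granule genes split into 4 lower and 2 higher of 40 (10.0% and 5.0%). CPLX2, which clamps vesicle release, fell by 5.75 on the log2 scale, the granule protein genes SCG3 and PTPRN fell by 4.73 and 4.98, and SYN3 by 2.71, whereas the granule chaperone gene SCG5 and the hormone-processing enzyme gene CPE rose (1.73 and 1.33). SYT1 and SNAP25, proteins of vesicle fusion, were not called (0.73 ± 0.57 and 0.57 ± 0.62). There were 3 axon guidance genes lower and 1 higher, and 2 synaptic genes lower, without RA day 10 replicate 1, and 0 of either list were called without RA day 10 replicate 2.

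Of 46 receptor and channel genes 2 were higher and 2 lower (4.35% each), near the shares of all genes, 4.47% and 5.37%. The higher ones were the sodium channel gene SCN9A (2.30) and the calcium channel gene CACNA1C (1.33). The lower ones were the nicotinic receptor genes CHRNA3 (-2.10) and CHRNA5 (-1.66). Of 22 genes of transmitter synthesis and transport 1 was called lower (4.55%), GAD2 of GABA synthesis (-4.71). Its levels were low, 0.12 and 0.0269 CPM in the RA day 21 libraries, against 1.48 and 2.4 CPM in the RA day 10 libraries. No member of 15 neuronal RNA-binding and splicing genes was called, and their median was -0.56. Neural progenitor genes gave 3 lower of 25: the notch ligand gene DLL1 (-4.22), SOX11 (-1.04) and SOX2 (-2.37), of which SOX2 lies wholly and DLL1 mostly within other annotated genes. PAX6, of the same list, was not called (0.60 ± 0.57). Glial and crest genes went both ways, 4 higher and 5 lower of 25 (16.0% and 20.0%). The nuclear factor genes NFIA (3.56) and NFIB (2.49), which act in gliogenesis, the water channel gene AQP4 (5.65, its span shared with an antisense gene) and the myelin gene MBP (2.21) were higher. ERBB3 (-3.56), OLIG2 (-2.64), the glutamate transporter gene SLC1A2 (-3.27), NGFR and EDNRB were lower. When RA day 10 replicate 1 was left out, 2 glial and crest genes were higher and 1 lower and 0 progenitor genes were called, and without RA day 10 replicate 2, 1 glial gene and 1 receptor gene were lower.

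Genes of the pluripotent state fell further in the last step. Of 25 pluripotency and oncofetal genes tested, 15 were lower (60.0% against 5.37% of all genes) and 1 higher, with a median log2 fold change of -3.57. POU5F1, the factor OCT4 at the centre of pluripotency, had 1011 and 1006 CPM at day 0, 159 and 164 at RA day 5, 36.2 and 22.8 at RA day 10 and 0.508 and 0.296 at RA day 21. LIN28A, which blocks maturation of let-7 microRNAs, had 2536 and 3050.3 CPM at day 0, 1097 and 1637 at RA day 5, 261 and 519 at RA day 10 and 1.91 and 1.85 at RA day 21. Both were lower at each later time, and the last difference was -6.20 ± 1.48 and -7.70 ± 1.71 on the log2 scale, with edgeR adjusted p of 0.0321 and 0.027. PRDM14, a germ cell and pluripotency factor, had 0.149 and 0 CPM in the RA day 21 libraries, against 8.38 and 6.9 CPM in the RA day 10 libraries, and DPPA3 had no count at RA day 21 and 1.35 and 1.85 CPM at RA day 10, at least 75.29-fold lower. NANOG (-5.82), FGF4 (-6.19), the NODAL coreceptor gene TDGF1 (-5.07) and its antagonist gene LEFTY1 (-5.46) were lower too. POU5F1, NANOG and DPPA3 have near-identical pseudogenes among which reads can be split, which makes their counts uncertain. PODXL, a sialomucin of stem cell surfaces that epithelia also carry, was the higher one (1.72). Without RA day 10 replicate 1 or 2, 6 and 4 members stayed lower, and without either RA day 21 library 0 did, while the median stayed between -4.38 and -3.08.

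Cell division genes fell together. Of 26 DNA replication genes 18 were lower and 0 higher (69.2% against 5.37% of all genes), with a median log2 fold change of -1.31, and of 25 mitosis and proliferation genes 12 were lower and 0 higher (48.0%), with a median of -1.50. CDC20, which turns on the ubiquitin ligase of anaphase, had 343 and 363 CPM at day 0, 281 and 278 at RA day 5, 176 and 176 at RA day 10 and 55.8 and 51.6 at RA day 21. PLK1, the mitotic polo kinase, had 43.6 and 38.2 CPM in the RA day 21 libraries, against 144 and 161 CPM in the RA day 10 libraries, and CCNB1, cyclin B1, 65 and 62.8 CPM in the RA day 21 libraries, against 197 and 209 CPM in the RA day 10 libraries. In all 3 the libraries of a group lay close together and the groups well apart. Their log2 fold changes were -1.72 ± 0.34, -1.90 ± 0.38 and -1.67 ± 0.33, with edgeR adjusted p of 0.0202, 0.0216 and 0.0204. BUB1 of the spindle checkpoint (-1.68), MKI67 (-1.53), CCNA2 (-1.53), AURKA (-1.55) and TPX2 (-1.60) followed.

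Among replication genes, CDC6, which loads the MCM helicase at origins, had 139 and 178 CPM at day 0, 125 and 117 at RA day 5, 65.5 and 79.4 at RA day 10 and 23.7 and 20.5 at RA day 21. ORC1, the largest origin recognition subunit, had 13.3 and 11.8 CPM in the RA day 21 libraries, against 59.2 and 74.5 CPM in the RA day 10 libraries, with a log2 fold change of -2.41 ± 0.44. The helicase subunit genes MCM2 (-1.53), MCM4 (-1.57), MCM6 (-1.30) and MCM7 (-1.48), the helicase cofactor MCM10 (-1.94), the licensing factor CDT1 (-1.55) and the primase PRIM1 (-1.66) were lower as well. All 26 replication and all 25 mitosis genes had negative values, whichever were called. These counts depend on single libraries. Leaving out the first RA day 10 library left 2 replication and 5 mitosis genes called, and leaving out any other of the 4 libraries left 0 of either list. The medians stayed between -1.39 and -1.32 for replication and between -1.65 and -1.34 for mitosis. Of 26 genes of cell cycle arrest, 2 were higher (7.69% against 4.47% of all genes) and 0 lower, so the larger share rests on 2 genes. Their list had a median of 0.40, which lay between 0.17 and 0.55 with any of the 4 libraries left out. BTG2, an antiproliferative p53 target, had 323 and 298 CPM in the RA day 21 libraries, against 64.8 and 45.8 CPM in the RA day 10 libraries, and RBL2, the pocket protein p130, 129.7 and 123 CPM in the RA day 21 libraries, against 70.4 and 70.2 CPM in the RA day 10 libraries. The inhibitor gene CDKN1A had 136 and 206 CPM in the RA day 21 libraries, against 57.2 and 43.1 CPM in the RA day 10 libraries and was not called (1.77 ± 1.09).

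The promoters of cell division genes carry short elements through which their expression follows the cell cycle: CCAAT boxes, bound by NF-Y, the cell cycle homology region TTTGAA, and E2F sites, here TTTCGCGC or TTTGGCGC. All were searched on both strands in the 250 bases before the annotated start, in RefSeq sequence of GRCh38.p14. The 120 bases before the start of 4 called genes are shown because they carry these elements near the start, with CCAAT (or ATTGG on the other strand) and TTTGAA in capitals and each sequence read 5′ to 3′ on the strand of its gene.
CDC20 (chr1:43358861-43358980, plus strand): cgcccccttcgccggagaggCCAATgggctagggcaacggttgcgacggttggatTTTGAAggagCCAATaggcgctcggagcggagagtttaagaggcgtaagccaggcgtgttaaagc
PLK1 (chr16:23678769-23678888, plus strand): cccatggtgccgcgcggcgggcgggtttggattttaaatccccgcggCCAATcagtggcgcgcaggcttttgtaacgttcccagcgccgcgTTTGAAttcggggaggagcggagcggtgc
CCNB1 (chr5:69167030-69167149, plus strand): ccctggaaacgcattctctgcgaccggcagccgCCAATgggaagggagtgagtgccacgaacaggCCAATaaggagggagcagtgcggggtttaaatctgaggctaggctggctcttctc
CDC6 (chr17:40287759-40287878, plus strand): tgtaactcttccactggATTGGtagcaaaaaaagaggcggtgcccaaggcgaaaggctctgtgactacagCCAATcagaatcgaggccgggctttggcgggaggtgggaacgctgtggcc
CDC20 has 2 CCAAT boxes around 1 TTTGAA, PLK1 has 1 of each, and CCNB1 and CDC6 have 2 CCAAT boxes and no TTTGAA in this stretch. Among the mitosis genes with a promoter in the table, 16 of 20 (80.0%) held CCAAT and 10 of 20 (50.0%) TTTGAA within 250 bases. Among all 13529 tested genes with a promoter the shares were 34.3% and 9.51%. Among replication genes 16 of 22 (72.7%) held CCAAT and 4 of 22 (18.2%) an E2F site, against 1.43% of tested genes for E2F. Of the members called lower, 9 of 10 mitosis and 12 of 17 replication genes held CCAAT, near the shares of their whole lists. A match is a description of these letters and not a bound site.

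**Figure D4:**
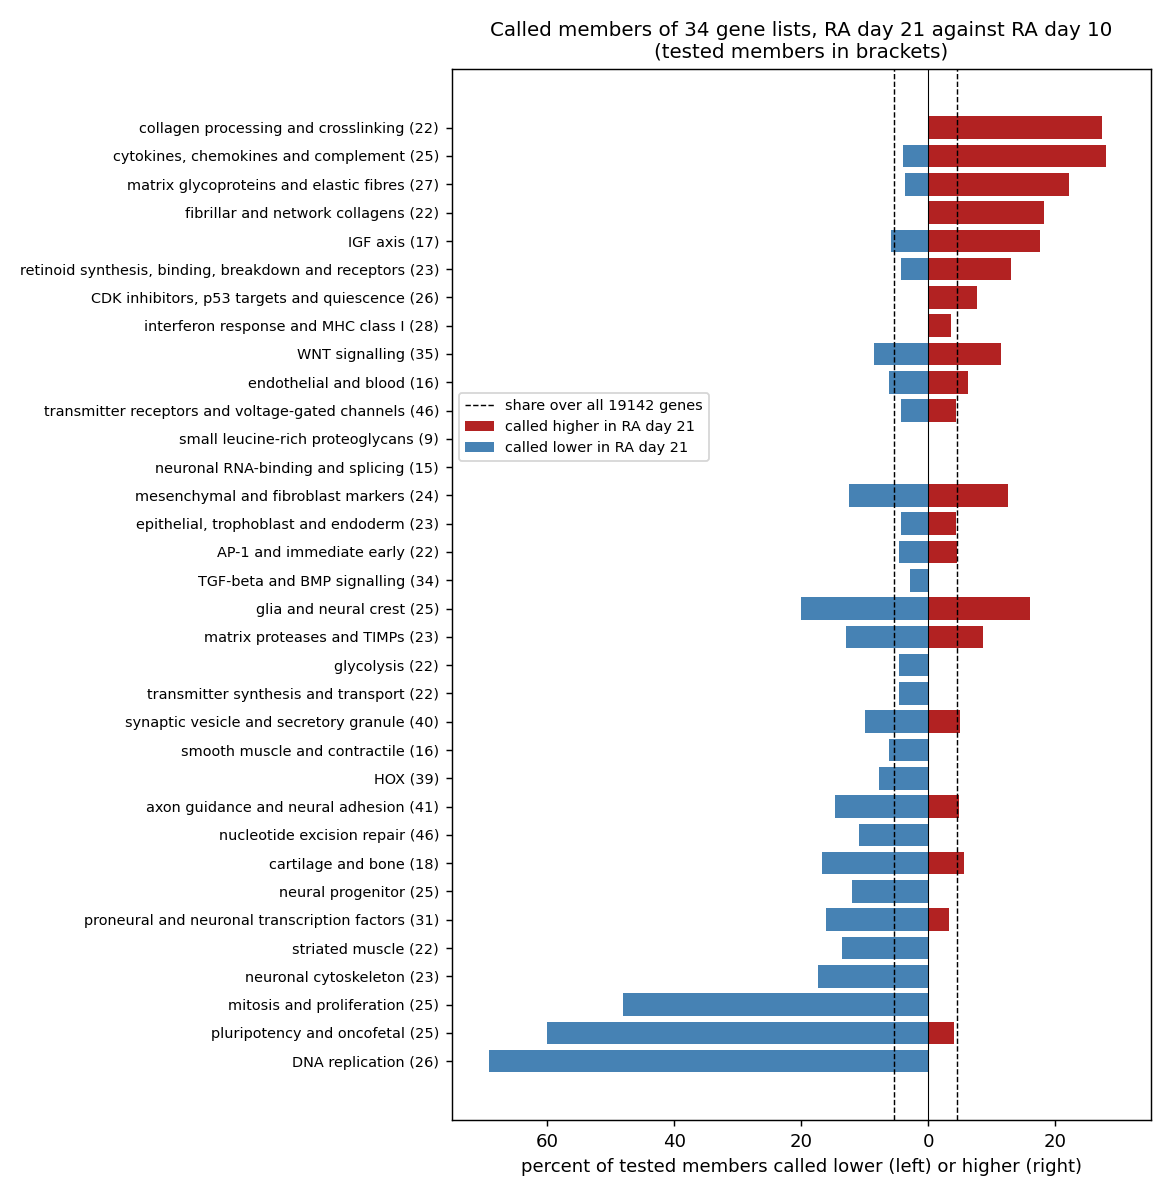
Percent of the tested members of 34 gene lists called higher (red, right) and lower (blue, left) at RA day 21 against RA day 10, with tested members in brackets and dashed lines at the shares of all genes, 4.47% and 5.37%. DNA replication, pluripotency and mitosis reach 69.2%, 60.0% and 48.0% lower, and cytokine and complement genes and collagen processing genes have the highest shares called higher, 28.0% and 27.3%.

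In nucleotide excision repair, the subject of the series, the genes called in the fit of all 14 libraries were mostly those of gap filling. The genes that find the damage were not called there. Of 46 genes tested, 0 were higher and 5 lower (10.9% against 5.37% of all genes), and the median log2 fold change was -0.05 against 0.01 for all genes. Of the 5, 4 act when the excised stretch is filled and sealed, work they share with DNA replication. RFC3, part of the loader of the sliding clamp, had 24.9 and 23.2 CPM in the RA day 21 libraries, against 54.9 and 71.5 CPM in the RA day 10 libraries. POLE, the catalytic subunit of polymerase epsilon, had 64.6 and 55.4 CPM in the RA day 21 libraries, against 121 and 151 CPM in the RA day 10 libraries. LIG1, the ligase of dividing cells, had 24.7 and 22.4 CPM in the RA day 21 libraries, against 56 and 49.3 CPM in the RA day 10 libraries. PCNA, the sliding clamp, had 115 and 128 CPM in the RA day 21 libraries, against 203 and 211 CPM in the RA day 10 libraries, and the libraries of the groups do not overlap in any of the 4. The log2 fold changes were -1.40 ± 0.31, -1.18 ± 0.31, -1.16 ± 0.24 and -0.77 ± 0.16, with edgeR adjusted p of 0.0276, 0.0432, 0.024 and 0.0238. The fifth, USP7, a deubiquitinase that protects a transcription-coupled repair factor among others, had 149 and 144 CPM in the RA day 21 libraries, against 207 and 240.3 CPM in the RA day 10 libraries (-0.61 ± 0.16).

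The damage sensors and nucleases were not called in the fit of 14 libraries. XPC, which finds distorted DNA, had 81.2 and 86.7 CPM in the RA day 21 libraries, against 82.5 and 72.8 CPM in the RA day 10 libraries (log2 fold change 0.11 ± 0.15). DDB2, which finds ultraviolet lesions, had 18.6 and 23.3 CPM in the RA day 21 libraries, against 18.2 and 16.7 CPM in the RA day 10 libraries (0.26 ± 0.53), and XPA, which holds the opened helix, 19.2 and 19.8 CPM in the RA day 21 libraries, against 19.5 and 21 CPM in the RA day 10 libraries (-0.06 ± 0.36). The nuclease genes ERCC1 and ERCC5 had log2 fold changes of 0.28 ± 0.18 and 0.37 ± 0.22. In all 5 the difference was under 2 SE, so a change was not detectable, which does not show that there was none. With any of the 4 libraries left out, 0 members were called. Without both BMP2 day 10 libraries, which enter through the shared spread, 15 of 46 were lower and 0 higher. Over all genes that fit called 2330 lower and 1790 higher, against 1027 and 856 in the fit of 14 libraries. The further repair genes it called are not reported here.

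**Figure D5:**
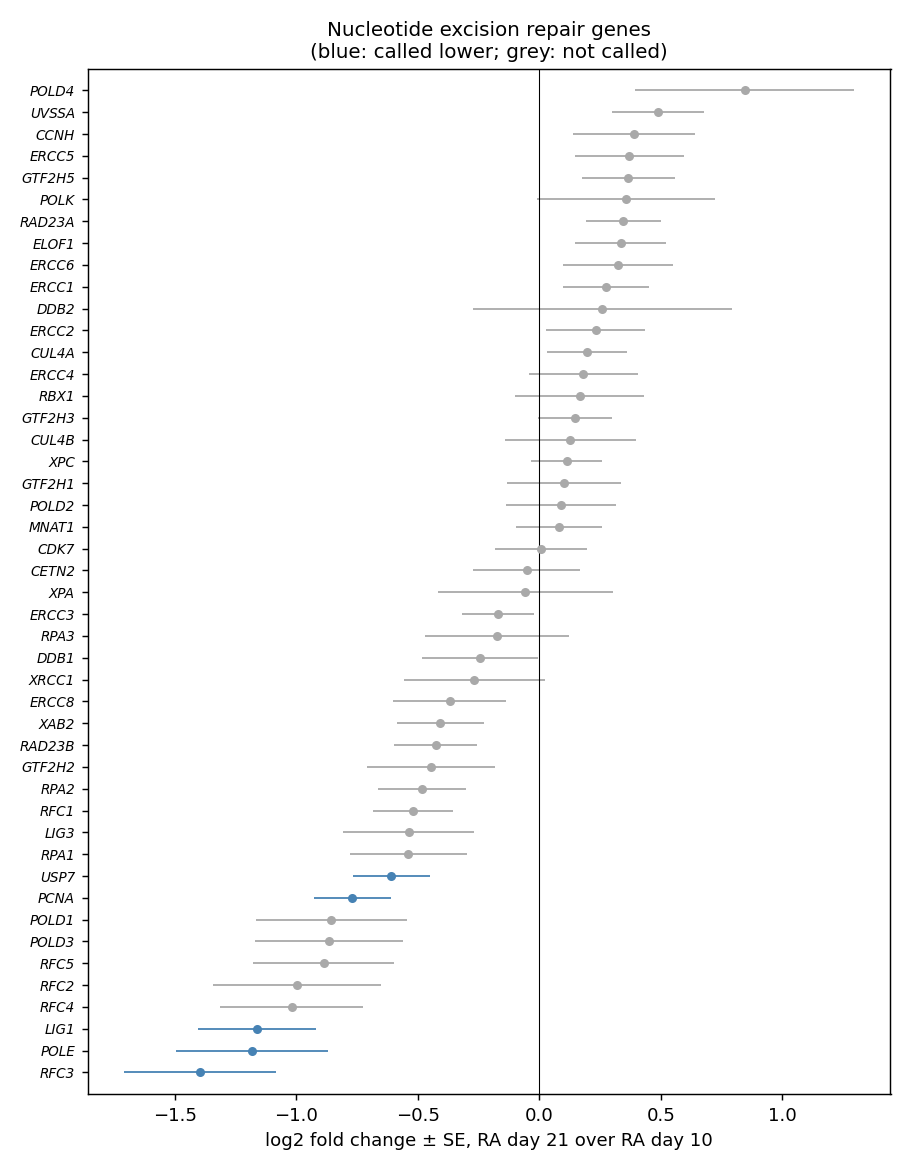
Log2 fold change of RA day 21 over RA day 10 with its SE for the 46 nucleotide excision repair genes tested, blue where called lower and grey where not called. RFC3, POLE and LIG1 lie lowest, PCNA and USP7 are the other called genes, and XPC, DDB2 and XPA lie near 0.

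Calls among matrix genes were mostly gains, in enzymes that process collagen as well as in chains. Of 22 collagen processing genes 6 were higher and 0 lower (27.3% against 4.47% of all genes), with a median log2 fold change of 0.79. PLOD2, which hydroxylates lysines for cross-links, had 245 and 246 CPM in the RA day 21 libraries, against 77 and 83.8 CPM in the RA day 10 libraries. LOXL1, which cross-links elastic fibres, had 46.4 and 68.5 CPM in the RA day 21 libraries, against 15.4 and 10.8 CPM in the RA day 10 libraries. BMP1, the protease that trims procollagen, had 197 and 231 CPM in the RA day 21 libraries, against 69.4 and 65.5 CPM in the RA day 10 libraries, and the prolyl hydroxylase P4HA1 151 and 166 CPM in the RA day 21 libraries, against 56.2 and 70.7 CPM in the RA day 10 libraries. The libraries of the groups do not overlap in these genes, and P3H3 (1.28) and CRTAP (0.82) were higher as well. Of 22 collagen chains 4 were higher (18.2%) and 0 lower, with a median of 0.89. The higher ones were COL16A1 (3.90), COL6A2 (1.55), COL4A5 of basement membranes (1.49) and COL18A1 (1.31). COL4A5 had 333 and 344 CPM in the RA day 21 libraries, against 120.5 and 121 CPM in the RA day 10 libraries. With any of the 4 libraries left out, 0 collagen processing genes and 0 collagen chains were called, while the medians stayed between 0.74 and 0.84 for processing and between 0.66 and 1.44 for chains.

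COL3A1, the chain of type III collagen, had 2.92 and 0.334 CPM at day 0, 114 and 4.73 at RA day 5, 1389 and 316 at RA day 10 and 5340.5 and 5369 at RA day 21. Both RA day 21 libraries were above both RA day 10 libraries. The RA day 10 libraries lay far apart, and the gene was not called (log2 fold change 2.65 ± 1.42, edgeR adjusted p of 0.251). COL1A1 (-0.65 ± 0.99) and COL1A2 (0.14 ± 0.58) were not called either. The small proteoglycan gene DCN had 12.6 and 13.8 CPM in the RA day 21 libraries, against 0.8 and 0.402 CPM in the RA day 10 libraries and missed the threshold (edgeR adjusted p of 0.0627), as did LUM (0.182), and 0 of 9 such proteoglycans were called.

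Of 27 matrix glycoproteins 6 were higher and 1 lower (22.2% and 3.7%, against 4.47% and 5.37% of all genes), with a median of 1.04. MFAP4, of elastic fibres, had 181 and 208 CPM in the RA day 21 libraries, against 20.0 and 7.7 CPM in the RA day 10 libraries. POSTN, periostin, had 293 and 272 CPM in the RA day 21 libraries, against 51.6 and 12.2 CPM in the RA day 10 libraries, and FBN1, the fibrillin of microfibrils, 291 and 260.4 CPM in the RA day 21 libraries, against 70.5 and 79.4 CPM in the RA day 10 libraries. EFEMP2, MFAP2 and LTBP2 were the other higher ones (2.02, 1.55 and 1.74), and the basement membrane gene NID1 was lower (-1.34). Of 24 mesenchymal markers, 3 were higher and 3 lower (12.5% each), so the list as a whole had no direction (median -0.30). The receptor gene PDGFRB had 116 and 129 CPM in the RA day 21 libraries, against 32.9 and 44.6 CPM in the RA day 10 libraries, and the mesenchymal factor TCF21 36.6 and 36.8 CPM in the RA day 21 libraries, against 3.58 and 6.23 CPM in the RA day 10 libraries, and FOXC1 rose too (1.53). MEOX1, a factor of somites, had 1.58 and 1.37 CPM in the RA day 21 libraries, against 18.6 and 20.5 CPM in the RA day 10 libraries, and PRRX2 (-2.01) and ZEB2 (-0.75) were lower. PDGFRA, TWIST1 and PRRX1 were not called (-0.62 ± 0.47, 0.97 ± 0.73 and 0.99 ± 0.87). With RA day 10 replicate 1 left out, 2 glycoproteins were higher and 1 lower, and 1 mesenchymal marker was called in each direction. Without any other of the 4 libraries 0 of either list were called.

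Among 23 matrix proteases and inhibitors, 2 were higher, the plasminogen activator gene PLAT (2.24) and SERPINE2 (2.16), and 3 lower, MMP2 (-1.22), MMP19 (-2.41) and MMP9. MMP9, a gelatinase of leukocytes among other cells, had 0.314 and 0.431 CPM in the RA day 21 libraries, against 20.1 and 4.23 CPM in the RA day 10 libraries. It is also one of the myeloid genes that were high in RA day 10 replicate 1. Of the 18 myeloid genes tested 5 were lower (27.8% against 5.37% of all genes) and 0 higher. Without RA day 10 replicate 1 their median was -0.48 in place of -4.95. LYZ, lysozyme, had 0.0448 and 0 CPM at RA day 21, against 22.3 and 0.373 CPM at RA day 10, and the perforin-like gene MPEG1 had 0 and 0.0674 CPM in the RA day 21 libraries, against 9.99 and 0.313 CPM in the RA day 10 libraries. For both, RA day 10 replicate 1 was the high library. Of the proteases and inhibitors 1 was lower and 0 higher without RA day 10 replicate 1, and without any other of the 4 libraries 0 were called.

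Complement and cytokine genes were among the gains. Of 25 cytokines, chemokines and complement genes 7 were higher and 1 lower (28.0% against 4.47% of all genes), with a median log2 fold change of 1.26. CFI, the protease that inactivates complement C3b, had 0.0406 and 0 CPM at day 0, 0.305 and 0.233 at RA day 5, 10.9 and 1.48 at RA day 10 and 740.1 and 661 at RA day 21. C7, of the membrane attack complex, had 18.4 and 14.8 CPM in the RA day 21 libraries, against 0.419 and 0 CPM in the RA day 10 libraries. The RA day 10 libraries of CFI and C7 differed several-fold, yet both stayed far under RA day 21. C1S, CCL2 and CSF1 rose by 2.66, 3.60 and 1.59 on the log2 scale, IL33 is given above, and CXCL14 was the lower one (-2.72). Without RA day 10 replicate 1, 3 members were higher, and without any other of the 4 libraries 0. Of 28 interferon response and MHC class I genes 1 was called higher (3.57% against 4.47% of all genes). It was IRF1 (1.71), most of whose span overlaps another gene, and B2M (0.80 ± 0.45) was not called.

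Retinoid genes did not change in common, although RA was present at both times. Of 23, 3 were higher and 1 lower. ALDH1A1, which makes RA from retinal, had 0.487 and 0.223 CPM at day 0, 0.163 and 0.0875 at RA day 5, 1.77 and 6.87 at RA day 10 and 94.2 and 109 at RA day 21. CRABP1, which carries RA in the cytoplasm, had 3.94 and 3.64 CPM in the RA day 21 libraries, against 43.3 and 30.3 CPM in the RA day 10 libraries. RXRB, a partner of the RA receptors, rose (1.09), and RARRES1 is described above. The RA-degrading enzymes CYP26A1 and CYP26B1 and the receptor RARB, all RA targets, had log2 fold changes of -1.47 ± 0.71, 2.00 ± 0.75 and 0.80 ± 0.48 and were not called. Of 39 HOX genes 3 were lower (7.69% against 5.37% of all genes) and 0 higher, with a median of 0.00. HOXD1 had 9.55 and 7.71 CPM in the RA day 21 libraries, against 39 and 41.1 CPM in the RA day 10 libraries, and HOXB1 is given above. Leaving out RA day 10 replicate 1 gave 2 HOX genes lower, 3 retinoid genes higher and 1 retinoid gene lower, and without RA day 10 replicate 2, 1 HOX gene was lower and 1 retinoid gene higher.

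Of 35 WNT pathway genes, 4 were higher and 3 lower (11.4% and 8.57%, against 4.47% and 5.37% of all genes). The ligand gene WNT2B had 2.88 and 1.98 CPM at day 0, 44.8 and 40.8 at RA day 5, 40.1 and 95.5 at RA day 10 and 1436 and 1273 at RA day 21. Another ligand gene, WNT7B, had no count at RA day 21 and 0.247 and 0.596 CPM at RA day 10, at least 19.9-fold lower. Secreted WNT inhibitors went both ways: WIF1 had 8.31 and 10.7 CPM in the RA day 21 libraries, against 0.228 and 0.0596 CPM in the RA day 10 libraries and SFRP2 5.14 and 4.28 CPM in the RA day 21 libraries, against 121 and 123 CPM in the RA day 10 libraries, while SFRP4 (3.99) and SFRP1 (2.11) rose and the WNT-linked receptor LGR5 fell (-2.50). In the insulin-like growth factor axis 3 of 17 were higher and 1 lower (17.6% and 5.88%). The fetal growth factor IGF2 had 863 and 660.3 CPM in the RA day 21 libraries, against 167 and 56.4 CPM in the RA day 10 libraries. Of the binding proteins that hold it outside cells, IGFBP5 had 835 and 618 CPM in the RA day 21 libraries, against 256 and 163 CPM in the RA day 10 libraries and IGFBP7 rose (2.56), whereas IGFBP6 had 6.11 and 5.73 CPM in the RA day 21 libraries, against 26.1 and 55.2 CPM in the RA day 10 libraries. Of 34 TGF-beta and BMP genes the receptor BMPR1B alone was called, as lower (-1.66, 2.94% of the list). Of 22 AP-1 and immediate early genes JUND was higher (0.87) and the ERK phosphatase DUSP6 lower (-1.60), 4.55% each. NRIP1, a nuclear receptor corepressor, had 74.4 and 66.5 CPM in the RA day 21 libraries, against 326 and 337 CPM in the RA day 10 libraries. In the fit without RA day 10 replicate 1, 1 WNT gene was higher and 2 lower and 1 gene of the insulin-like growth factor axis was higher, and without RA day 10 replicate 2, 1 WNT gene was lower and 0 of that axis were called.

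Of the lists of other cell types the cultures could hold, those not described above gave 4 calls or fewer each. Of 22 striated muscle genes 3 were lower, the actins ACTC1 (-6.18) and ACTA1 (-4.87) and the myosin light chain MYL4 (-4.89), and of 16 smooth muscle genes DES (-2.85), which was under 1 CPM in all 4 libraries. Of 18 cartilage and bone genes ACAN (-4.72), ALPL (-4.61) and COMP were lower and COL9A3 higher (3.39), with COMP at no count at RA day 21 and at 0.381 and 0.626 CPM at RA day 10, at least 23.7-fold lower. Of 16 endothelial and blood genes the receptor KDR rose (3.34) and the junction gene CDH5 fell (-5.44). CDH5 was low, at 0.0896 and 0 CPM in the RA day 21 libraries, against 1.73 and 2.22 CPM in the RA day 10 libraries. Of 23 epithelial, trophoblast and endoderm genes APOB was higher (1.34) and KRT19 lower (-1.98) and the median was -1.98. Of 22 glycolysis genes ENO1 was lower (-0.94) and 21 had negative values. The shares called lower were 13.6% in striated muscle and 16.7% in cartilage and bone, against 5.37% of all genes. In the other lists of this paragraph they lay between 4.35% and 6.25%. The shares called higher were 5.56% in cartilage and bone, 6.25% in endothelial and blood and 4.35% in epithelial, trophoblast and endoderm genes, against 4.47% of all genes. With any of the 4 libraries left out, 0 striated muscle and 0 cartilage and bone genes were called.

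In the step before, RA day 10 against RA day 5, edgeR called 0 genes, with 2629 at an unadjusted p under 0.05 and 715 called by DESeq2. RA day 10 against day 0 gave 4593 calls (24.0%) and RA day 21 against day 0 8529 (44.6%). In the BMP2 cultures the step from day 10 to day 21 gave 35 calls (0.183%), 27 higher and 8 lower (0.141% and 0.0418%), beside BMP2 day 10 libraries that correlated less (Pearson r of 0.937 across genes, which are not independent replicates) than those of RA day 21 (0.997) and RA day 10 (0.980). The difference between the RA and the BMP2 step passed the test for 29 genes (0.151%), 5 of them higher and 24 lower with RA (0.0261% and 0.125%).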

How the data were processed

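RNA of NT2 cells was sequenced in 14 libraries, 7 groups of 2 (RA and BMP2 at days 5, 10 and 21, and untreated day 0), grouped by sample title. The deposited count table holds whole read counts of 25952 Ensembl genes, with 0 rows that name no gene and 0 columns of other samples. A second deposited table gives RPKM for these genes. The submitters' processing notes name STAR, featureCounts, DESeq2 and hg19 without versions or roles. Of counts from 1 to 19, 66.0% to 73.5% per library were even, so both reads of a pair may be counted. The length implied by RPKM equals the whole gene span in GENCODE v29 within 1% for 89.0% of 5814 genes with at least 1000 counts in each library, so introns may be included. Whether counting used strand is not stated. Gene names came from a reference list that held 25214 of the identifiers.

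Totals ran from 45773278 to 75754396 counts. Each gene was fitted with edgeR 4.0.16 (R 4.3.3) over all 14 libraries, with TMM factors and quasi-likelihood F tests, after filterByExpr (at least 10 counts), giving 7 residual and 3.08 prior degrees of freedom. Calls have a Benjamini-Hochberg adjusted p under 0.05. The SE is the log2 fold change divided by the square root of F. A fold against a group without counts used a floor of 3 counts over that group. The RA day 21 libraries differed by more than counting error and were kept as 2.

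The comparison and its 34 gene lists (883 of 924 members tested) were chosen with earlier results of these data known. Named genes were the 12 largest called changes in each direction with a mean of at least 5 CPM in the higher group and no overlap between the libraries of the groups, the 10 largest losses among genes up at day 10, the 4 largest called changes of each list, all called repair genes and a set of markers. Other genes, among them every uncalled gene outside the markers, the further called members of lists and those called in all 4 fits without 1 library, were named after their values were seen, as was the myeloid list. Some genes that count in these totals are not reported here.

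In simulated data of 18699 genes for RA day 21 against RA day 10, edgeR recovered 2% of 50 genes changed 1.5-fold, 0% of 50 changed 2-fold, 58% of 50 changed 4-fold and 80% of 50 changed 8-fold. There were 3 false calls. All other genes had equal simulated means in the 2 groups, unlike the data, which makes the adjusted p stricter. Alternatives were RLE factors, no filter, CPM of at least 1 in 2 libraries, robust dispersions, a replicate block, a test against a 2-fold change, DESeq2 1.42.0, limma 3.58.1 on the log2 of RPKM of 11641 genes with 1 or 0.1 added, smaller sets of libraries, and each of the 14 libraries left out. Promoters are RefSeq sequences of GRCh38.p14. Tables and figures were made with Python 3.11.15, pandas 2.3.3, NumPy 2.4.6 and matplotlib 3.10.9.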

Additional observations from a re-analysis of the deposited data

Results flagged for a closer look

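For 29 genes the step from day 10 to day 21 differed between RA and BMP2 in edgeR's test of the difference itself. The values are log2 fold changes of the RA step minus those of the BMP2 step. CADM3 (-3.89) and CHRNA3 (-5.33), an adhesion and a nicotinic receptor gene, were called lower in the RA step (-1.68 and -2.10) and higher in the BMP2 step (2.21 and 3.23). The difference was -2.50 for ITGA6, -2.68 for P2RY1, -2.19 for MAN1A1, -2.12 for HS6ST2 and -2.37 for PLTP, genes called in the BMP2 step and not in the RA step.

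The other genes were called in the RA step and not in the BMP2 step. Among those lower with RA, the difference was -12.76 for MMRN1, -6.91 for ABCB1, -5.59 for ERVH48-1, -5.10 for PTPRE, -4.49 for ACKR1, -4.26 for ATCAY, -4.20 for KIF21B, -3.40 for ABTB3, -2.60 for GNG2 and -2.35 for MYO10. It was -2.29 for KCNG1, -2.20 for CDC25B, -2.09 for DPYSL2, -1.80 for EPB41L1, -1.50 for PARG and -1.45 for PIK3C2B. Among those higher with RA it was 2.75 for ATP5ME, 1.98 for TMSB10, 1.69 for SLC20A2, 1.30 for PTK7 and 1.10 for FKBP1A. The BMP2 day 10 libraries lay far apart, and their part in these differences was not tested.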

How the results depend on the processing

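No named gene that was called changed sign in any alternative run. The counts of called genes moved more. With a test against a 2-fold change, 29 genes were higher, 27 lower, 6 up at day 10 and down again, and 2 differed between the RA and BMP2 steps. DESeq2 gave 1647, 2324, 324 and 637 in the same order. Untreated and RA libraries alone gave 2128, 2836 and 470, and without both BMP2 day 10 libraries the counts were 1790, 2330 and 356. The libraries compared alone gave 2419, 2565 and 433, and 3 for the difference between steps. With limma on log2(RPKM + 1), 220 genes were up and down again and 175 differed between steps, and with no filter 118 differed. RLE factors, the CPM filter, robust dispersions and limma on log2(RPKM + 0.1) kept all 4 counts within 1.5 times.

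Leaving out 1 of the 14 libraries gave 16 to 1948 higher, 5 to 2043 lower, 2 to 305 up and down again, and 2 to 747 that differed between steps. In such fits the spread of the single library left in a group is taken from the other groups. The lowest counts came without an RA day 21 library (17 and 16 higher, 7 and 5 lower) and without RA day 10 replicate 2 (28 higher, 68 lower), the highest without a BMP2 day 10 library. Without RA day 10 replicate 1 there were 219 higher and 375 lower, and without an untreated library 542 and 545 higher and 539 and 542 lower. The cause was not tested.

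With the replicate block, 680 were higher, 802 lower, 104 up and down again and 12 differed between steps. The labels do not say whether the replicate numbers pair libraries, and pairing was not tested. The deviations of same-numbered RA day 21 and RA day 10 libraries correlated at 0.0391 across genes. The descriptions number the RA day 21 libraries otherwise than their titles. In the simulated data genes changed 1.5-fold or 2-fold were mostly missed. Far fewer genes were changed there than are called in the data, so its recovery rates do not carry over to them.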

Other observations

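Among the genes called whichever of the 4 libraries was left out, several belong to none of the lists. TSPAN7, a membrane organiser of the tetraspanin family, had 50.9 and 50.0 CPM in the RA day 21 libraries, against 5.54 and 4.63 CPM in the RA day 10 libraries (log2 fold change 3.31 ± 0.37). GCNT1, which branches mucin-type sugar chains, had 51.4 and 45.6 CPM in the RA day 21 libraries, against 4.84 and 2.91 CPM in the RA day 10 libraries (3.65 ± 0.41), and DPP10, a partner of potassium channels, 60.1 and 57.1 CPM in the RA day 21 libraries, against 12.9 and 9.14 CPM in the RA day 10 libraries (2.41 ± 0.28). At RA day 5, TSPAN7 had 5.21 and 5.02 CPM, GCNT1 6.71 and 4.93 CPM and DPP10 11.6 and 10.3 CPM. EPB41L1, a membrane skeleton protein of neurons, had 29.5 and 29.2 CPM in the RA day 21 libraries, against 78.2 and 84.4 CPM in the RA day 10 libraries (-1.47 ± 0.15). LURAP1L had 15 and 19.1 CPM in the RA day 21 libraries, against 0.838 and 0.358 CPM in the RA day 10 libraries. ERVH48-1, of retroviral origin and expressed in placenta, had 4.58 and 4.2 CPM at day 0, 4.48 and 6.18 at RA day 5, 11.6 and 11.3 at RA day 10 and 0.344 and 0.431 at RA day 21.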
